A study of Mus musculus with 4 samples.

Results

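The genes described here are 6 RNA-binding regulators of stored maternal mRNA: Dazl, Cpeb1, Ybx2, Zfp36l2, Btg4 and Ddx4. They were chosen by name in the gene column of the 4 arrays, which gave 7 probes for 6 genes out of 41174 probes. Dazl has 2 probes and each of the others has 1, printed once on each array. The RefSeq accession of each probe gave the same gene name as the file. Of the 7 probes, 6 (5 genes) passed the filter on dim spots, as did 8115 probes in all. The probe of Zfp36l2 did not pass.

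Each array set 1 pool of 50 mouse oocytes exposed to a hydrostatic pressure of 20 MPa for 60 min at 37 °C against 1 pool of 50 oocytes held alike without pressure. The pressure-treated pool carried Cy5 (red) and its control Cy3 (green) on all 4 arrays, so an effect of the dye and an effect of pressure cannot be told apart. All 4 arrays lay on 1 slide read in 1 scan. The labels used here name no strain, age or meiotic stage, and describe the 4 replicates as biological. RNA was amplified from 240 pg per pool in a two-round procedure, so a value cannot tell fewer contributing cells from less RNA per cell.

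An oocyte grows while storing mRNA that it will not use until meiosis resumes, and by the time it is fully grown it makes almost no new transcript. Which stored messages are translated, kept silent or destroyed is then decided by proteins that bind them, largely through the length of the poly(A) tail. CPEB1 and DAZL act on translation and polyadenylation, YBX2 packages and stabilizes stored messages, ZFP36L2 and BTG4 bring in the deadenylase that removes tails, and DDX4 is a helicase of germ cell RNA granules.

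The oocyte label was checked against marker genes. Of 14 oocyte markers on the array 12 passed the filter, among them Gdf9, Bmp15 and Zp3 with both pools detected on all 4 arrays. Omt2b and Padi6 also passed, each detected in 1 treated and 3 control pools. Nlrp5 was not well above background on any array and Zp2 was on 1. Of 15 cumulus and granulosa markers 6 passed. Of these, Tnfaip6 was well above background in both pools on all 4 arrays. Cyp19a1, Ptgs2 and Inha were so in 4 control pools, and in 3, 3 and 2 treated pools. Nr5a2 was so in 3 pools of each kind, and Hsd17b1 in 3 control and 0 treated pools. Amh, Fshr, Foxl2, Kitl and Lhcgr were detected on 0 arrays. Inhba and Has2 were detected on 1 array and Inhbb and Ptx3 on 2, too few to pass. Blood markers passed in 2 of 6 cases (Srgn and Hba-a1), and those of oviduct, vessels and stroma in 3 of 10 (Acta2, Krt8 and Kdr). Their part in the values below was not tested.

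None of the 5 measured genes differed between treated and control pools beyond the spread of the 4 arrays. By limma, 0 of the 6 member probes had an adjusted p under 0.05, against 0 of all 8115 probes (0%). None was under an unadjusted p of 0.05, as 324 of all probes were (3.99%). No member lay above 0 on all 4 arrays, as 3.04% of probes with 4 values did, and none lay below 0 on all 4, as 9.18% did. Cpeb1, Ybx2 and Dazl had mean log2 ratios (treated over control) above 0, and Btg4 and Ddx4 had means below 0. Each of these means joined arrays of opposite sign.

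**Figure D1:**
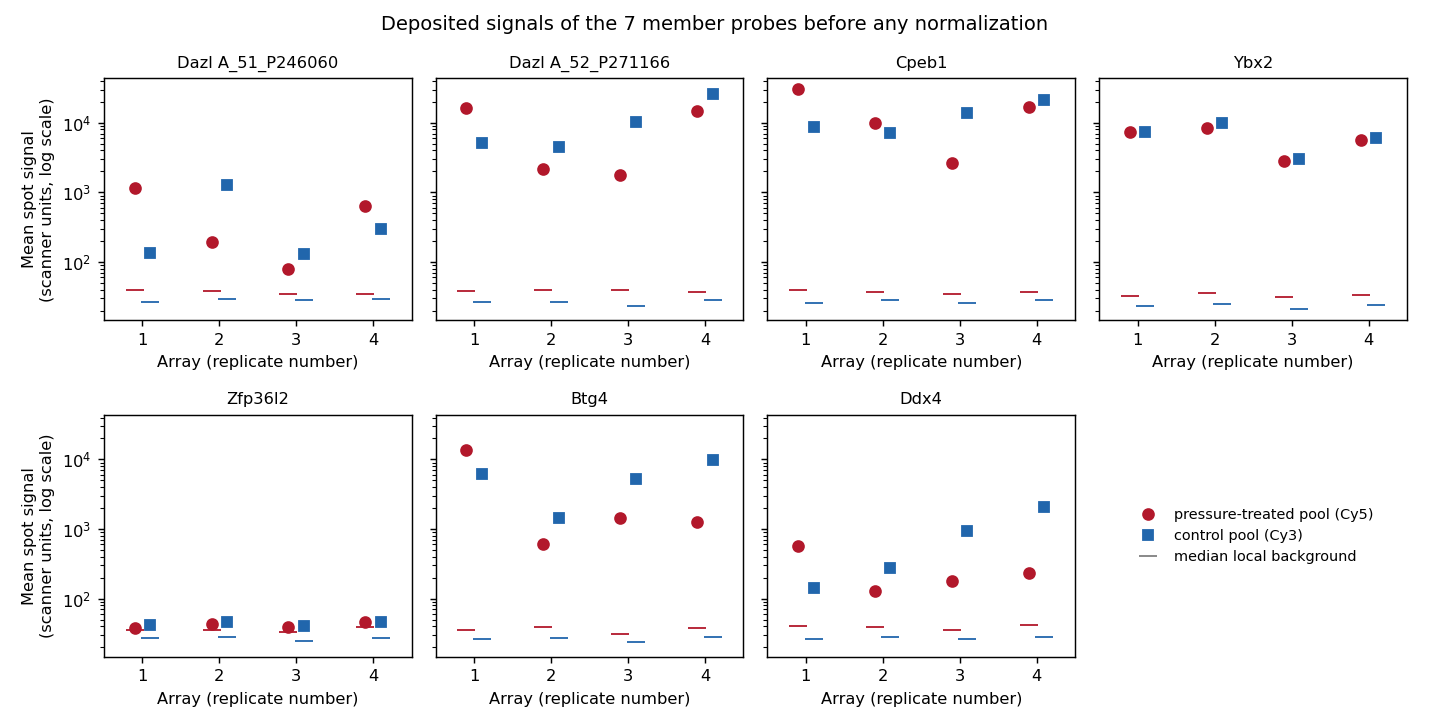
Mean spot signal in scanner units (log axis) of each member probe on the 4 arrays, with red circles for the pressure-treated pool, blue squares for the control pool and dashes for the median local background of each channel. Cpeb1, Ybx2, Btg4 and the downstream Dazl probe (A_52_P271166) lie far above background in both pools, Zfp36l2 lies close to it, and the 2 pools give nearly the same signal for Ybx2 on every array.

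Cpeb1 encodes the protein that binds the cytoplasmic polyadenylation element, a U-rich motif of 3′ ends, and that holds such messages silent until it is phosphorylated. Its probe lies at chr7:77220184-77220243 (mouse build mm7, minus strand). The signal of the treated pool was 30098, 9890, 2672 and 16855 scanner units on replicates 1 to 4, and that of the control pool was 8572, 7189, 13911 and 21078. In these unscaled signals treated pools were brighter on replicates 1 and 2 and dimmer on replicates 3 and 4, and the ranges of the 2 groups overlapped. Before normalization the median log2 ratio of all measured probes was 0.97, -1.60, -2.13 and -1.55 on replicates 1 to 4. Brightness in scanner units, here and for the other members, is thus not set against the rest of the array. After normalization within each array the log2 ratios were 0.29, 1.67, -0.23 and 1.51. The mean was 0.81 ± 0.38 (SE, n = 4), with a 95% interval from -0.13 to 1.75 and an adjusted p of 0.93 by limma (0.078 unadjusted). With median centring in place of loess, which moved the median of all tested probes to -0.32, Cpeb1 was at 0.040. Over the other settings it ran up to 1.58.

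The measured stretch of the Cpeb1 message holds the letters TTTTAAT, one of the motifs that its own protein is known to bind. Its 28-base surroundings at chr7:77220184-77220211 (mm7, minus strand) are shown 5′ to 3′ with the match in capitals, beside the match of TTTTAT in the probe of Ybx2 at chr11:70023106-70023125 (plus strand).
Cpeb1: ttgatagaagtTTTTAATcacagtcaca
Ybx2: cctctgaagccaTTTTATga
Of all 41174 probes of 60 bases, 5.09% hold TTTTAT or TTTTAAT on the probe's strand, the only strand searched. These 2 are the members that do. A match says only that the letters are there.

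DAZL, a germ cell protein that binds messages beside CPEB1 and promotes their translation, was measured by 2 probes on chromosome 17 (mm7, minus strand) that lie 7974 bases apart in the genome. The upstream probe (A_51_P246060) covers 48435590 to 48435736, a span of 147 genomic bases for its 60 bases, so it crosses a splice junction. It is shown because the 2 probes gave different ratios, and no letter is marked.
Dazl upstream probe: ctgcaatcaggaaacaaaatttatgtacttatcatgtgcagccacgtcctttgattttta
The downstream probe (A_52_P271166) covers 48427556 to 48427615, nearer the 3′ end of the transcript.

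The upstream Dazl probe gave 1159, 193, 79.3 and 638 scanner units in the treated pools of replicates 1 to 4, and 135, 1268, 131 and 298 in the controls. The treated pool was the brighter one on replicates 1 and 4 and the dimmer one on replicates 2 and 3. Its normalized log2 ratios of 1.91, -1.28, 0.48 and 2.40 were among the most variable on the arrays, with an SD of 1.65 against a median SD of 0.52 over all tested probes. The mean was 0.88 ± 0.63 (SE, n = 4), with a 95% interval from -0.70 to 2.45 and an adjusted p of 0.93 by limma. Replicate 2 decides much of this value: without it the mean was 1.60, and without replicate 4 it was 0.37. The mean turned to -0.22 with scale normalization between arrays and to -0.30 with array weights.

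The downstream Dazl probe was detected in all 8 pools, with 16167, 2129, 1758 and 14509 scanner units in treated pools and 5184, 4485, 10378 and 25908 in controls. Only on replicate 1 was the treated pool brighter. After normalization its log2 ratios were 0.18, 0.15, -0.47 and 1.0, with a mean of 0.22 ± 0.27 (SE, n = 4) and a 95% interval from -0.46 to 0.89 (limma's adjusted p = 0.94). The mean was -0.04 without replicate 4 and -0.56 with median centring. The normalized level, in log2 scanner units after loess and quantile scaling of the arrays, was 12.95 ± 1.1 in treated and 12.73 ± 0.68 in control pools (SD, n = 4).

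The upstream minus the downstream Dazl log2 ratio was 1.73, -1.44, 0.95 and 1.39 on replicates 1 to 4. It averaged 0.66 ± 1.43 (SD, n = 4). An exact two-sided sign-flip test over the 4 arrays gave p = 0.50, where the smallest it can give is 0.125. The gap was at least 0.95 in size on each array, and its direction was not the same on all 4.

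**Figure D2:**
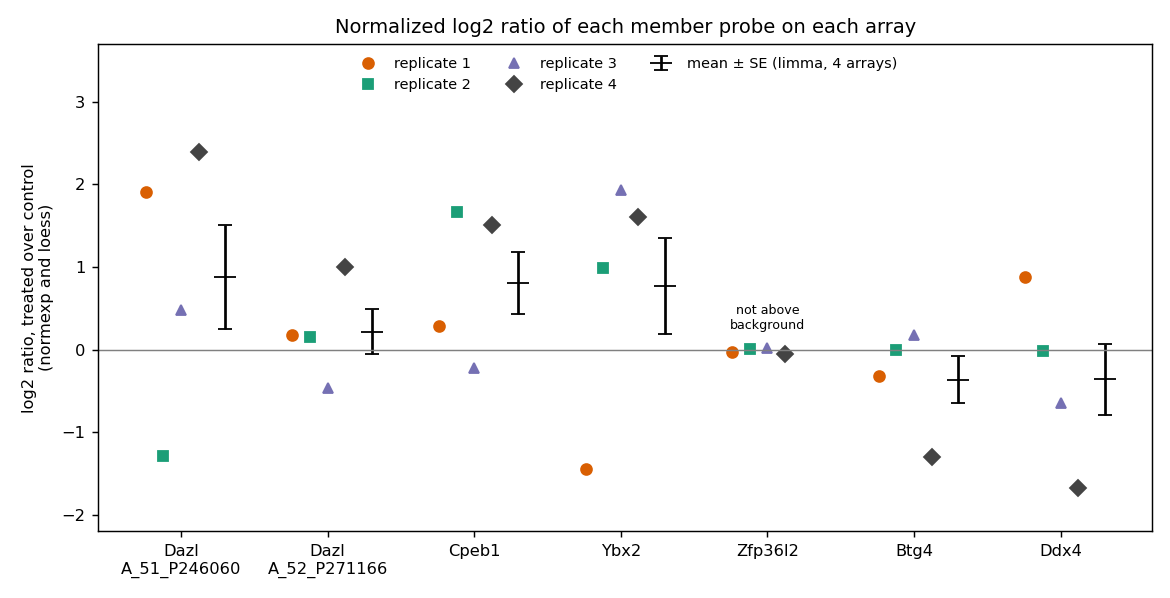
Log2 ratio of treated over control after normexp background correction and loess, for each member probe on the 4 arrays (coloured symbols), with the limma mean and its SE in black for the 6 measured probes. The 6 measured probes each have arrays on both sides of 0, Ybx2 is below 0 on replicate 1 alone, and Zfp36l2 is drawn without a mean because it was not above background.

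Ybx2 encodes the Y-box protein of the germ line (MSY2), which coats stored messages and keeps them stable. Its probe lies at chr11:70023066-70023125 (mm7, plus strand). The treated pool gave 7309, 8389, 2854 and 5620 scanner units and the control pool 7386, 9801, 3041 and 5997. On each array the 2 pools were close, and the log2 ratio of their background-subtracted signals was -0.017, -0.23, -0.097 and -0.096 on replicates 1 to 4. These 4 ratios spanned 0.21, a span smaller than that of all but 11 of the 8000 measured probes with such a ratio on every array, where the median span was 3.84.

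Normalization moved Ybx2 far from that near-constant ratio. The median ratio of all measured probes before normalization was 0.97, -1.60, -2.13 and -1.55 on replicates 1 to 4, while Ybx2 stayed near 0 on each. After loess the log2 ratio of Ybx2 was -1.44, 0.99, 1.93 and 1.60, lowest on the array with the highest of those medians (replicate 1) and highest on the array with the lowest (replicate 3). The mean was 0.77 ± 0.58 (SE, n = 4), with a 95% interval from -0.69 to 2.23 and an adjusted p of 0.93 by limma. Without replicate 1 it was 1.51, with an adjusted p of 0.19, equal to the lowest in that fit. Over the alternatives its adjusted p by limma ran from 0.059, with the sign of replicate 1 turned, to 0.999 without replicate 3. With median centring the ratio was 0.041. Why the 2 channels stayed equal at this probe was not tested.

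**Figure D3:**
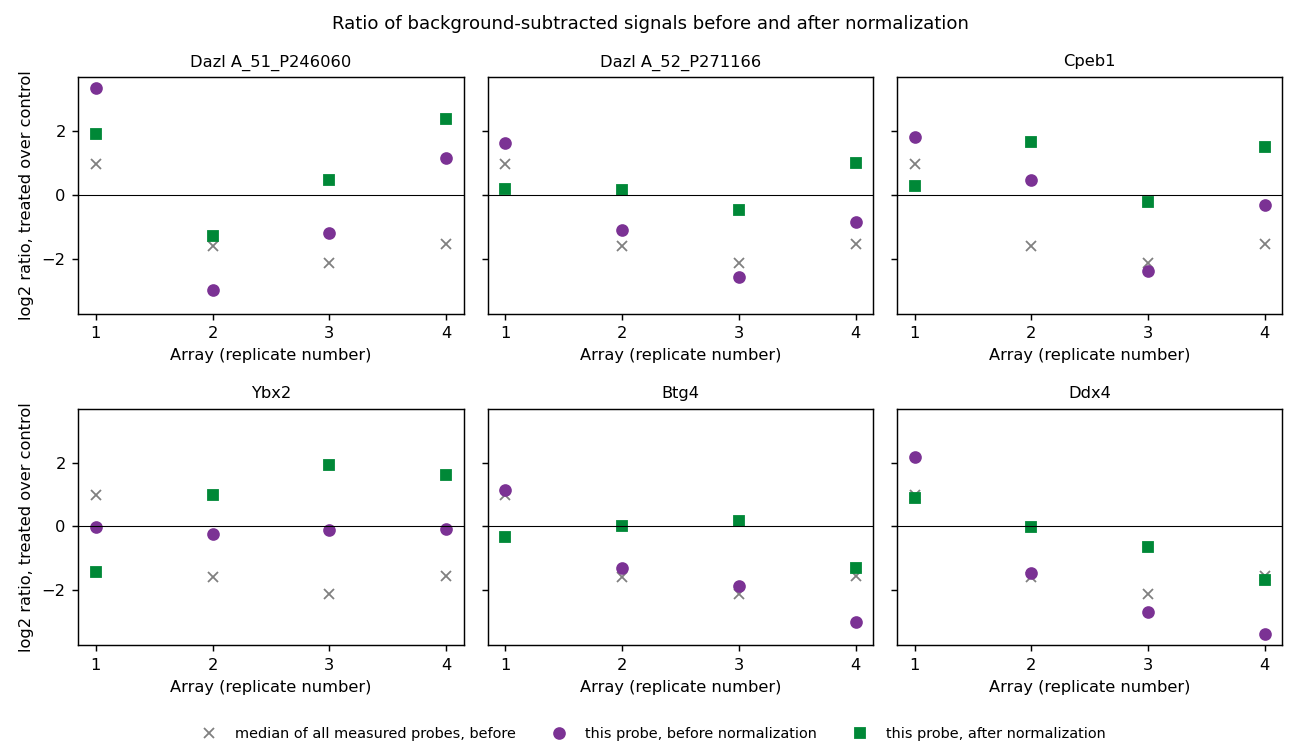
Log2 ratio of background-subtracted signals before normalization (purple circles), the ratio after normexp and loess (green squares), and the median ratio before normalization of all measured probes (grey crosses), for the 6 measured member probes on the 4 arrays. Before normalization Ybx2 stays between -0.23 and -0.017, while the medians of all probes run from -2.13 to 0.97 and each of the other 5 probes spans at least 4.12.

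Replicate 1 stood apart from the other arrays over the series, and it bears on several members. Before normalization it was the array with a median ratio above 0. Its normalized log2 ratios correlated with the mean of the other 3 arrays at r = -0.27 across measured probes, which are not independent replicates. The same correlation was low for each other array too, at 0.125, 0.23 and 0.069 for replicates 2, 3 and 4. Each of those was taken against a mean that includes replicate 1. Leaving replicate 1 out gave 0.99 for Cpeb1, 0.53 and 0.23 for the upstream and downstream Dazl probes, 1.51 for Ybx2, -0.37 for Btg4 and -0.77 for Ddx4. The adjusted p by limma was then 0.19 for Ybx2 and between 0.55 and 0.81 for the others. The labels give this array the same dyes as the rest, and whether its channels were exchanged was not tested, so each member is also given with its sign turned. Cpeb1 then had 0.67, the upstream and downstream Dazl probes -0.079 and 0.13, and Ybx2 1.49. Btg4 had -0.20 and Ddx4 -0.80. The adjusted p by limma was then 0.059 for Ybx2 and between 0.34 and 0.97 for the others.

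BTG4 links the cap-binding machinery to the CCR4-NOT deadenylase and is needed to clear maternal messages when the egg matures. Its probe lies at chr9:51098148-51098207 (mm7, plus strand) and holds AATAAA, the signal for cleavage and polyadenylation, shown in capitals with 30 bases around it (chr9:51098155-51098184). AATAAA or ATTAAA is found in 7.49% of all probes and in no other member.
Btg4: aggaagacttgaAATAAAtactcttgtgtt
The treated pools gave 13536, 606, 1437 and 1276 scanner units and the controls 6171, 1439, 5165 and 9851. The treated pool was brighter on replicate 1 only. The normalized log2 ratio was -0.32, 0.0015, 0.18 and -1.31, so that replicate 4 holds most of the mean of -0.36 ± 0.29 (SE, n = 4; limma's adjusted p = 0.93). Without replicate 4 the mean was -0.047. The 95% interval ran from -1.08 to 0.36. The sign of the mean was below 0 under every alternative run, with values from -1.06 to -0.047.

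ZFP36L2 binds AU-rich elements and hands their messages to the same deadenylase. Its single probe, at chr17:82480896-82480955 (mm7, minus strand), has a GC content of 71.7%, the highest of the members, where the median of all probes is 40%. The treated pools gave 38.0, 43.1, 39.2 and 45.4 scanner units over local backgrounds of 33.5 to 39. The control pools gave 41.2, 46.3, 40.9 and 46.5. Neither pool was well above background on any array, so no fold is given for this gene, and it was left out of the test.

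DDX4, the mouse counterpart of Vasa, is an RNA helicase of the germ cell granules in which small RNAs and stored messages are handled. Its probe lies at chr13:109754306-109754365 (mm7, minus strand). The treated pools gave 562, 127, 177 and 234 scanner units and the controls 141, 271, 938 and 2040. In scanner units the treated pool of replicate 1 was the brightest treated one. After normalization it was not, with treated levels of 8.44, 8.03, 8.86 and 8.37 on replicates 1 to 4. The normalized levels of the controls spread more widely, with 8.42 ± 0.34 in treated and 8.78 ± 1.18 in control pools (SD of log2 units, n = 4). The log2 ratio was 0.89, -0.011, -0.64 and -1.67. The mean of -0.36 ± 0.43 (SE, n = 4; 95% interval from -1.42 to 0.70; limma's adjusted p = 0.93) changed sign to 0.078 without replicate 4 and was -0.77 without replicate 1.

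In the log ratios deposited by the authors, the scanner software's error for 1 array lay between 0.20 and 0.35 on the log2 scale for the 6 measured probes. For the upstream Dazl probe the deposited ratios, turned to log2, were 2.29 ± 0.29, -1.43 ± 0.24, 1.17 ± 0.24 and 3.09 ± 0.35 on replicates 1 to 4 (software error of 1 spot). Those of Ybx2 were -1.47, 0.58, 2.03 and 1.23, with the same sign as the loess ratios on each array. Both sets of ratios were made from the same spots, so the shared sign is no separate check.

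Likeness to other genes was measured as the root mean square difference of the 4 log2 ratios, over 6029 named genes for each member's brightest probe. The genes nearest to Dazl (downstream probe) were Tmem179b, Pgm3 and Msl3l2, at 0.040 to 0.14 log2 units. Those nearest to Cpeb1 were Castor2, Ammecr1l and Poc1b, at 0.32 to 0.44, and those nearest to Btg4 were Spred1, Ccser2 and Ndufa13, at 0.074 to 0.087. Srcap, Cpa1 and Zfp273 were nearest to Ddx4 at 0.10 to 0.15. Krtap19-1, Erdr1 and Mllt6 were nearest to Ybx2 at 0.13 to 0.20, where the median gene differed from it by 1.67. Before normalization the ratios of these 3 genes spanned 0.40, 0.64 and 0.44 over the 4 arrays. That of Ybx2 spanned 0.21 and that of the median probe 3.84, so the near-equal channels of Ybx2 are shared by its nearest genes. Whether their likeness after normalization reflects expression was not tested.

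Other genes of stored-mRNA regulation were taken from 5 lists, with 1 value a gene from its brightest measured probe. None of their genes passed limma's test at an adjusted p of 0.05. As for all 6381 measured genes with a symbol, of which 275 were under an unadjusted p of 0.05, each list had genes on both sides of 0. The median log2 ratio of all those genes was -0.02, with 53.1% below 0. The list medians below depend on the scaling: with median centring, where the median of all tested probes was -0.32, they were -0.63 for masking and storage, -0.70 for polyadenylation, -0.32 for decay, -0.64 for granule genes and -0.81 for targets.

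Of 36 genes that mask or store messages, 23 were measured, 9 with a mean above 0 and 14 below, and their median was -0.09, or 0.0094 without replicate 3. Elavl2, an RNA-binding protein of the ELAV family, had 0.71 ± 0.26 (SE, n = 4) and was above 0 on all 4 arrays, although median centring put it at -0.093. The other measured probe of Elavl2 had 0.22. Caprin2, a cytoplasmic RNA-binding protein, had -0.51 ± 0.18, and Pum2, a Pumilio repressor, had -0.63 ± 0.27. Tacc3, the vertebrate relative of the CPEB partner maskin, had -0.83 ± 0.46, with replicate 1 at -2.57 and detection in 1 treated and 3 control pools. Tacc3 thus passed the filter through the control channel alone, so the filter itself favoured a higher control signal. Caprin2, Pum2 and Tacc3 were below 0 on all 4 arrays, but the other 2 measured probes of Pum2 had 0.08 and 0.21. Without replicate 3 Pum2 had -0.35, and without replicate 1 Tacc3 had -0.25. From the processed signals Tacc3 had -2.59.

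Of 18 genes of cytoplasmic polyadenylation 12 were measured, 3 above 0 and 9 below, with a median of -0.06. Tent2, the poly(A) polymerase GLD2 that lengthens tails in the cytoplasm, had -0.57 ± 0.24 (SE, n = 4), and Paip2, an inhibitor of poly(A)-binding protein, had -0.54 ± 0.20. Both were below 0 on all 4 arrays, and the other measured probe of Paip2 had 0.01. Cpeb2, a relative of Cpeb1, had -1.14 ± 0.60 with replicate 1 at -3.27, and -0.42 without that array. It was detected in 2 treated and 3 control pools. Cpeb2 thus passed the filter through the control channel alone, so the filter itself favoured a higher control signal.

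Of 32 genes of deadenylation, uridylation and decay 23 were measured, 13 above 0 and 10 below, with a median of 0.09. The deadenylase subunit Cnot6l had 0.73 ± 0.21 (SE, n = 4), and its other measured probe had -0.55. Cnot4, a ubiquitin ligase of the CCR4-NOT complex, had 0.71 ± 0.29 on the 3 arrays with a value, and its other measured probe had 0.37. Upf2, a factor of nonsense-mediated decay, had 0.28 ± 0.16, and Cnot1, the scaffold of CCR4-NOT, had -0.23 ± 0.16. Both kept 1 sign on all 4 arrays, but the size depended on the scaling, with 1.88 for Upf2 and -1.30 for Cnot1 from the processed signals. Tut4, which adds uridine to deadenylated messages, stood well above background in 0 treated pools and 3 control pools. It passed the filter through the control channel alone, so the filter itself favoured a higher control signal. The means over arrays gave 1.67-fold higher signal in control pools (limma's adjusted p = 0.93, with a measured ratio of -0.75 ± 0.32). That fold is no lower bound, since it leaves out the spread between arrays, and replicates 2 and 3 had log2 ratios of -0.0034 and -0.19. It is also open to dye bias. The fold rests in part on replicate 1, at -1.41: the measured log2 ratio of Tut4 was -0.043 with that array turned and -0.28 with array weights, and -3.41 from the processed signals.

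Of 18 germline granule genes 9 were measured, 2 above 0 and 7 below, with a median of -0.25, and of -0.04 without replicate 3. Gtsf1 and Mael, factors of the piRNA pathway, had -0.72 ± 0.53 and -0.60 ± 0.49 (SE, n = 4), each with 2 arrays above 0 and 2 below. The other measured probe of Gtsf1 had -0.19. Without replicate 3 Mael was at -0.023 and Gtsf1 at -0.29, and without replicate 2 Gtsf1 was at -0.36. Without replicate 1 Gtsf1 was at -1.17, and without replicate 2 Mael was at -0.96. Tdrkh, a Tudor protein, had -0.39 ± 0.29, and -0.14 without replicate 4 or -0.65 without replicate 3. Of 10 transcripts known as targets of such translational control 9 were measured, 3 above 0 and 6 below, with a median of -0.37. Tex19.1, a germ cell transcript bound by DAZL, had -0.82 ± 0.31 and was below 0 on all 4 arrays, and without replicate 3 it had -0.47. Plat (tissue plasminogen activator) had -0.79 ± 0.39 and Cdc20, the activator of the anaphase-promoting complex, -0.96 ± 0.57. Plat had -0.43 without replicate 3, and Cdc20 had -0.45 without replicate 4, -0.63 without replicate 1 and -1.48 without replicate 2. Ccnb1, cyclin B1, had 0.02 ± 0.28. The median of the targets was -0.18 without replicate 3 and -0.215 without replicate 4.

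**Figure D4:**
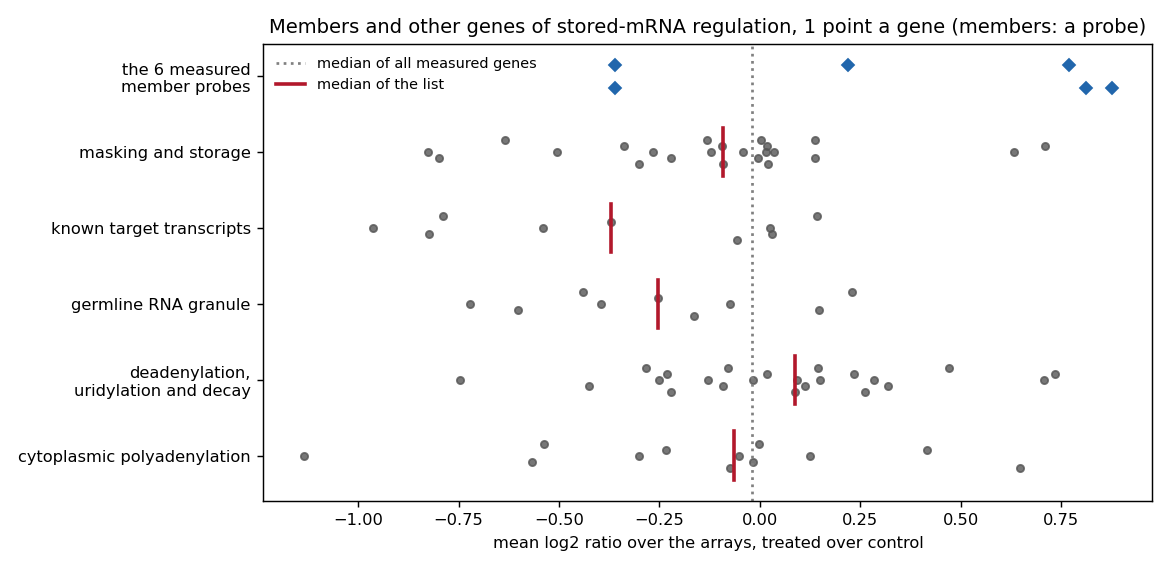
Mean log2 ratio over the arrays, treated over control, for the 6 measured member probes (blue diamonds) and for the measured genes of 5 lists (grey points), with the list median in red and the median of all 6381 measured genes as a dotted line at -0.02. The list medians run from -0.37 (target transcripts) to 0.09 (deadenylation, uridylation and decay), and none of the plotted genes passed the test.

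The letters known from the other proteins' motifs were searched in the same way. ATTTA, the core of AU-rich elements, is in the upstream Dazl and the Ybx2 probes and in 9.16% of all probes. TTTGTTT or GTTTG, letters bound by DAZL, are in the Ybx2, Zfp36l2 and Ddx4 probes and in 8.71% of all. Among measured probes the 488 with TTTTAT or TTTTAAT had a median log2 ratio of -0.06 and the rest -0.01. With minus without, the medians differed by 0.060, 0.0085, -0.041 and -0.25 on replicates 1 to 4, so the sign was not shared by the arrays.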

How the data were processed

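The deposited scanner files give each spot's mean and local background intensity, and a log10 ratio of processed intensities with its log10 error, per the file headers. The submitters' processing notes name Agilent Feature Extraction 9.5.1.1. The authors' value table equals that log10 ratio to within 5.0e-10. Positions are the files' own, in mm7. No spot was saturated.

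Background was corrected by normexp (offset 50) and arrays were normalized by loess in limma 3.58.1 (R 4.3.3), with control spots at weight 0 and outlier spots left out. Probes counted as measured when 1 channel stood well above background on 3 or more arrays. An intercept-only fit (lmFit, eBayes) compared log2 ratios with 0 over all 8115 measured probes, genome-wide, with Benjamini-Hochberg adjustment. Gene names came from the files, and for 22944 probes from RefSeq accessions (GRCm38.p6, names only). The number of arrays limits precision.

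The members and lists were chosen with earlier results of these data known. Named were all members, the 3 genes nearest to each, and per list the 3 genes of smallest p and those of 1 sign on all arrays, up to 5. Ccnb1 and the genes named in the marker check were chosen after their values were seen. The ratio before normalization was looked at after the values were seen. P-values measure the spread between these 4 pairs of pools.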

Additional observations from a re-analysis of the deposited data

Results flagged for a closer look

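One set of 4 array values held an array far from the other 3, of 25 sets examined for the members and lists, where chance gives about 5%. The normalized level of the upstream Dazl probe in the control pool of replicate 2 was 10.1 log2 units, against 6.98 to 7.44 in the other control pools. The treated pool of that array was at 8.83, and the downstream Dazl probe had 11.88 there in the control pool, against 12.64 to 13.52 on the other arrays.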

How the results depend on the processing

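In each of 16 alternatives 0 probes passed limma's test, with lowest adjusted p from 0.059 (replicate 1 turned) to 0.999. Leaving out 1 array gave 0 passing probes in each case. The main fit had 324 of 8115 probes under an unadjusted p of 0.05. Among the alternatives this count was 71 of 8115 with the trended, robust form of eBayes. It was 953 of 8115 with array weights and 1042 of 8115 with replicate 1 turned. Without the filter on dim spots it was 1054, but of 41174 probes. The alternatives include one with the sign of replicate 1 turned, listed with that array's earlier results known. Cpeb1, Ybx2 and Btg4 kept their sign in all 15 alternatives run for them, which are not 15 separate checks. Changing the filter or the form of eBayes cannot move a probe's mean. The processed signals and the deposited log ratios gave these genes the same values. The upstream Dazl probe was at -0.22 with scale normalization, -0.30 with array weights and -0.079 with replicate 1 turned. The mean over both Dazl probes was 0.547. With median centring the downstream Dazl probe was at -0.56, Cnot4 at -0.58, Cnot6l at -0.063 and Elavl2 at -0.093. With replicate 1 turned Cdc20 was at 0.012, Cpeb2 at 0.50 and Tacc3 at 0.46. Leaving out 1 array gave -0.043 to 0.45 for the downstream Dazl probe and -0.77 to 0.078 for Ddx4. The cause was not tested. The median over all probes tested was -0.13 both from the scanner software's processed signals and from the deposited log ratios. Each array holds 1 treated and 1 control pool, so the reported ratio is itself the paired analysis. With 4 arrays, the signal of Zfp36l2 at background and the low signal of Tut4 limit what can be said of them.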

Other observations

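Serglycin (Srgn), a proteoglycan of blood cells and 1 of the 2 measured blood markers, was below 0 on all 4 arrays, at -0.55, -0.38, -0.53 and -0.61, and did not pass (limma's adjusted p = 0.93, unadjusted 0.019). Of all 6381 measured genes with a symbol, 591 were below 0 on all 4 arrays and 275 were under an unadjusted p of 0.05 by limma. The other measured blood marker, Hba-a1, an alpha globin, had -0.49, 0.17, 0.61 and 0.85.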
